A study of Mus musculus with 3 samples.

Results

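Lgr5+ cells were compared with Lgr5- cells of forming digits, labelled as forelimb, of mouse embryos at E14.5, where E counts days of embryonic development. Each side was 1 RNA-seq library, and these were 2 of the 3 libraries of the study. Both were taken from C57/bl6 mice of genotype Lgr5-eGFPCreERT2/+, a reporter allele that places GFP and an inducible Cre under the control of Lgr5. Cells were digested out of the digits and sorted by GFP, and the labels call the GFP-positive cells interzone and the GFP-negative cells non-interzone. The sort read the reporter and not the position of a cell, and no source used here gives the number of embryos behind each library. The third library, from Sox9+ digit cells at E13.5 of Sox9-eGFP/+ mice of the same background, entered no comparison, and its values stand beside the others only as a reference. The genes were matched by symbol, and 12438 of the 23284 listed reached at least 1 FPKM in the higher of the E14.5 libraries and are called measured. FPKM is a fragment count scaled to the length of the transcript and to the mapped fragments of the library. A fold is the ratio of FPKM + 1, which understates the differences of weakly expressed genes. With 1 library on each side there was no replicate error, no test and no p-value, and every difference given here is one between libraries.

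A synovial joint starts as an interzone, a band of flattened cells that crosses a cartilage rod where the joint will open. Interzone cells express the growth factor Gdf5, leave the programme of the growing cartilage, and later give rise to articular cartilage, ligaments and the lining of the joint. Lgr5 is a cell surface receptor for R-spondins, secreted proteins that make cells more responsive to Wnt, and it marks stem cells in the gut and other epithelia. The cells around the interzone in a digit include chondrocytes of the phalanges, the perichondrium that wraps them, loose mesenchyme, tendon and muscle precursors, vessels, nerves and skin.

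The libraries had similar breadth, with 12002 genes at 1 FPKM or more in Lgr5+ cells and 11969 in Lgr5- cells. The sums of FPKM were 534025 and 547115. Rn45s, the precursor of ribosomal RNA, made up 1.86% of that sum in Lgr5+ cells and 6.13% in Lgr5- cells, and haemoglobin genes took 0.0361% and 1.01%. Of the 12438 measured genes, 453 (3.64%) were higher in Lgr5+ cells by 2-fold or more, 235 (1.89%) were lower by as much, 5.53% differed either way and 11750 genes lay within 2-fold. The median log2 ratio over all measured genes was 0.08. Scaling by the upper quartile moved that median by −0.10, so log2 ratios within about that distance of a threshold depend on the scaling. The share of genes called was similar at low and middle levels: 3.39% were higher and 2.26% lower among the 3447 genes whose higher value lay between 1 and 5 FPKM, against 3.7% and 1.85% among the 3407 between 20 and 100 FPKM. It was larger among the 906 genes at 100 FPKM or more, where 5.85% were higher and 2.21% lower.

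The selector genes of both limbs were expressed in the libraries labelled as forelimb. Tbx5, which specifies the forelimb, stood at 20.9 FPKM in Lgr5+, 11.9 FPKM in Lgr5- and 4.92 FPKM in Sox9+ cells. The hindlimb selector genes Tbx4 and Pitx1 stood at 22.0 and 56.5 FPKM in Lgr5+ cells and at 28.02 and 83.2 FPKM in Lgr5- cells. They stood at 36.8 and 161 FPKM in Sox9+ cells, whose label names no limb. Hoxc10 and Isl1, also hindlimb genes, stood at 0.37 and 0.02 FPKM in Lgr5+ and at 0.21 and 0.14 FPKM in Lgr5- cells. They stood at 17.0 and 6.86 FPKM in Sox9+ cells. Limb origin and its part in the differences were not tested, so forelimb stands here only as the label gives it.

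The 4 genes taken as markers of the sorted population were all higher in Lgr5+ cells. The sort read the Lgr5 reporter and the genes were picked as its markers, so their direction is no independent result. Lgr5 (GRCm38 chromosome 10, 115450314 to 115587780) stood at 26.8 FPKM in Lgr5+ cells, 1.36 FPKM in Lgr5- cells and 3.48 FPKM in Sox9+ cells. Gdf5 (chromosome 2, 155941023 to 155945367) stood at 615 FPKM in Lgr5+, 71.7 FPKM in Lgr5- and 59.9 FPKM in Sox9+ cells. Cilp (chromosome 9, 65265180 to 65280614), a matrix protein of cartilage, stood at 58.0, 0.75 and 0.2 FPKM. Osr2 (chromosome 15, 35296098 to 35303305), a zinc finger factor of forming joints, stood at 116, 35.6 and 45.1 FPKM. Cilp RNA was therefore near 0 outside the Lgr5+ library, whereas Osr2 and Gdf5 were also well expressed in Lgr5- cells. The 4 genes are annotated as protein-coding and the spans are those of the whole genes. In bulk RNA, a larger share of cells that express a gene and more RNA per cell cannot be told apart.

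**Figure D1:**
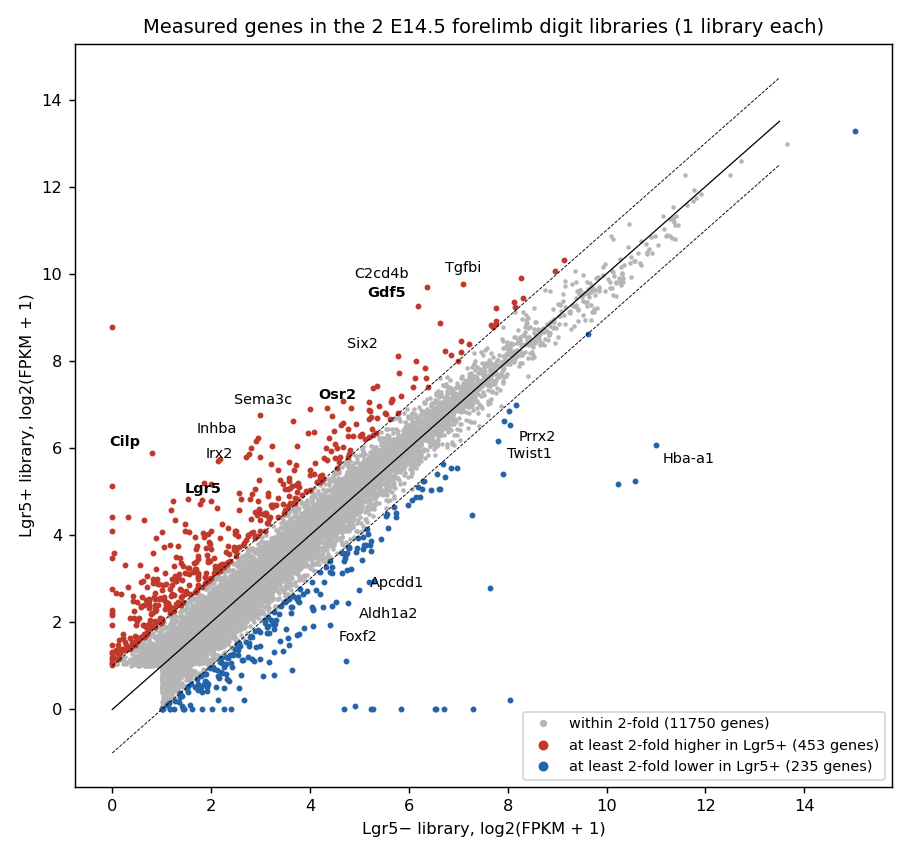
Each point is 1 of 12438 measured genes, with log2(FPKM + 1) in Lgr5- cells on the horizontal axis and in Lgr5+ cells on the vertical axis. The solid line marks equal values, the dashed lines a 2-fold difference, and the marker genes are in bold: Lgr5, Gdf5, Cilp and Osr2 all lie above the upper dashed line, and Hba-a1 lies far below the lower one.

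Lists of joint and skeletal genes are given first by count, and the background shares above apply to each. All lists were chosen with earlier results of these data known. Their counts are therefore descriptions and no independent evidence of what the cells are. Of 21 measured interzone genes, 13 were higher by 2-fold or more and none lower, with a median log2 ratio of 1.25. This list holds Lgr5, whose reporter was read in the sort, the marker genes Gdf5 and Osr2, and also genes treated by family further on. Of 19 measured tendon and ligament genes, 9 were higher by 2-fold or more and none lower by as much, with a median of 0.76. A lower value, by under 2-fold, was found for 4 of the 19. These were Cpxm2 (10.3 against 20.2 FPKM), Ogn (22.2 against 33.4 FPKM), Egr2 (29.6 against 43.8 FPKM) and Egr1 (603 against 670 FPKM). The tendon factor gene Mkx hardly differed, at 32.6 against 29.1 FPKM. Tnmd, the tenomodulin gene of tendon cells, stood at 41.6 against 16.0 FPKM, and Htra3, a secreted protease gene, at 35.6 against 12.4 FPKM. Articular and synovial genes had 2 of 16 measured members higher, the marker gene Cilp and Thbs4 (12.9 against 2.94 FPKM), and none lower.

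Genes of chondrocyte maturation and bone went the other way. Of 17 measured, none was higher by 2-fold, 5 were lower and 12 lay within 2-fold, with a median of −0.81. A lower value in Lgr5+ cells was found for 14 of the 17. The 3 with a higher value were Enpp1 (11.2 against 6.35 FPKM), Col10a1 (2.24 against 2.17 FPKM) and Ank (6.16 against 6.06 FPKM). Runx2, the master factor of bone and hypertrophic cartilage, stood at 2.1 FPKM in Lgr5+, 10.7 FPKM in Lgr5- and 12 FPKM in Sox9+ cells, 3.78-fold lower in Lgr5+ than in Lgr5-. Runx3 stood at 1.81 against 10.9 FPKM, and the osteoblast factor gene Sp7 at 0.73 against 5.07 FPKM. The others lower by 2-fold or more were the factor gene Dlx5 (3.97 against 15.7 FPKM) and Alpl (1.2 against 5.16 FPKM). Dlx5 and Alpl, the phosphatase gene of mineralising cells, were 3.36-fold and 2.8-fold lower.

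Promoter sequence is shown for Cilp, the 1 of the 4 marker genes with an entry in the RefSeq promoter table (build GRCm38.p6), and for Inhba, the activin subunit gene, which was among the 25 genes with the highest ratios. The 250 bases before an annotated start are printed 5′ to 3′ on the plus strand, with every match to 5 short motifs in capitals. They are chr9:65264930-65265179 for Cilp and chr13:16011601-16011850 for Inhba. The Cilp window ends just before its gene span, whereas the Inhba window lies inside the span of Inhba (16004256 to 16031609).
Cilp: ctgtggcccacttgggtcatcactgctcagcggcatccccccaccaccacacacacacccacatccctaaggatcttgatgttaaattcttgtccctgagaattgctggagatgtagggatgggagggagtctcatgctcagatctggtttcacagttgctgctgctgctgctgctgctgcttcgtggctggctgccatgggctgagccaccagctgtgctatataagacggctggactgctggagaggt
Inhba: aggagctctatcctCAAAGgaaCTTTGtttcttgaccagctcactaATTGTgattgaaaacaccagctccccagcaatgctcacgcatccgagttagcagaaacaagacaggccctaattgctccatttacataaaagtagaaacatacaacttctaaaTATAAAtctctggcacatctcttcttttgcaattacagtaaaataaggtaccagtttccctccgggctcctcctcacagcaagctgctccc
The motifs were searched as exact letters on both strands. CTTTG is the core read by TCF and LEF factors and ACAAT the core read by Sox factors. TATAAA is a form of the TATA box, and CAGATG and CACGTG are E-box forms. No exact match lay in the Cilp window, where the similar stretch tatataag was not counted. The Inhba window held CAAAG 236 bases and CTTTG 228 bases before the start, ATTGT at 204 bases and TATAAA at 91 bases. These were the most matches (4) of any window held for the 25 highest genes, where those of Btc, Glis1 and Man1a had none. For the shares, 1 window was counted per gene, picked by coordinate and not by use in these cells. TATAAA was present in 12.9% of these 27025 promoter windows and in 6.28% of the 9830 windows of measured genes. The share was 12.2% in the 328 windows of genes at least 2-fold higher and 14.6% in the 144 windows of genes at least 2-fold lower. CTTTG was present in 41.4% of the windows of measured genes, 40.9% of those of higher genes and 43.8% of those of lower genes. ACAAT was present in 17.5%, 14.3% and 17.4%, CAGATG in 9.49%, 9.76% and 10.4%, and CACGTG in 8.3%, 8.23% and 4.17%. These shares describe letters in a window and say nothing of binding.

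Beyond the marker genes, the highest ratios belonged to genes of several kinds. Among the 25 highest were the homeobox gene Barx2 (20.4 against 0.25 FPKM), the chondrogenic factor gene Scrg1 (107 against 6.9 FPKM) and the scavenger receptor gene A430110N23Rik, now named Ssc5d (51.4 against 3.39 FPKM). Man1a, a mannosidase gene of the Golgi, stood at 54.3 against 5.49 FPKM and was 8.52-fold higher. C2cd4b, a nuclear protein gene, reached 825 against 81.3 FPKM and was 1 of the 3 genes on this list above 100 FPKM that were not short RNAs. Its neighbour C2cd4a on chromosome 9 stood at 10.3 against 1.45 FPKM and was 4.62-fold higher, although in Sox9+ cells it was higher still, at 25 FPKM. Among the 25 highest, 5 genes (Snora33, Snora43, Snora69, Scarna8 and Mir1983) were short RNA genes listed at 0 in Lgr5- cells, and no fold is given for them.

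The 25 lowest ratios were led by red blood cell and short RNA genes. Of these, 7 were on the red blood cell list, and 8 were short RNA genes recognised by their symbols (such as Mir and Snora). Gm12238, annotated as a small nucleolar RNA, was a further one, listed at 0 against 56.1 FPKM. Across the 41 measured short RNA genes recognised by symbol, 9 were at least 2-fold higher and 15 at least 2-fold lower. The remaining protein-coding genes among the lowest included the homeobox gene Dbx2 (0.74 against 8.68 FPKM, 5.56-fold lower), the interferon-induced gene Ifitm1 (6.76 against 38.2 FPKM, 5.05-fold lower) and Plac8 (0.17 against 5.31 FPKM, 5.39-fold lower). Hdc, the histamine synthesis enzyme gene of mast cells, stood at 0.71 against 7.31 FPKM. The Sox9+ library had values close to those of the Lgr5+ library for Dbx2 (1.4 FPKM), Ifitm1 (6.64 FPKM), Plac8 (0.34 FPKM) and Hdc (0.85 FPKM).

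Transcription factor genes split by family. Of the 10 measured Sox genes, 4 were at least 2-fold higher and none 2-fold lower, with a median log2 ratio of 0.70. Of the 44 measured limb homeobox genes, 8 were at least 2-fold higher and 10 lower, with a median of −0.48. T-box, AP-2 and Sall genes had 1 member higher and 3 lower of 12, with a median of −0.52. Forkhead genes had 1 higher and 5 lower of 22. The medians of these 4 families kept their sign under every scaling tried.

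The Sox genes that build cartilage were all on the higher side. Sox9, the master factor of chondrocytes, stood at 332 FPKM in Lgr5+, 147 FPKM in Lgr5- and 255 FPKM in Sox9+ cells. Its partners Sox5 (35.1 against 10.0 FPKM) and Sox6 (38.6 against 11.0 FPKM) were 3.27-fold and 3.31-fold higher. Sox4, a factor of progenitor cells, stood at 701 against 318 FPKM. Among T-box and AP-2 genes, Tbx3 (7.79 against 24.1 FPKM), Tbx2 (7.71 against 20.9 FPKM) and Tfap2a (0.97 against 4.34 FPKM) were lower and Tbx1 (4.95 against 1.08 FPKM) was higher.

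The Iroquois homeobox genes differed by genomic cluster. Irx1 (chromosome 13, 71958232 to 71963723) stood at 44.0 FPKM in Lgr5+ cells, 11.8 FPKM in Lgr5- cells and 15.6 FPKM in Sox9+ cells, 3.53-fold higher in Lgr5+ than in Lgr5-. Irx2, on the same chromosome at 72624430 to 72634196, stood at 57.2, 5.84 and 9.97 FPKM and was 8.51-fold higher. The third gene of that cluster, Irx4, was listed at 0 in Lgr5+ cells and at 0.29 FPKM in Lgr5- cells and did not count as measured. The members of the other cluster, on chromosome 8, went the opposite way. Irx3 (91798511 to 91801654) stood at 5.23, 17.5 and 7.42 FPKM, Irx5 (92357796 to 92361456) at 12.2, 26.3 and 5.25 FPKM and Irx6 (92674289 to 92680956) at 0.8, 3.64 and 0.09 FPKM. The Lgr5- library was thus the highest of the 3 for each gene of the chromosome 8 cluster, by 2.96-fold, 2.07-fold and 2.58-fold over the Lgr5+ library. The difference of the 2 clusters has no test.

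Neighbouring forkhead genes on chromosome 13 differed in direction within their cluster. Foxc1, a forkhead factor of mesenchyme and skeletal development (chromosome 13, 31806646 to 31810635), stood at 131 FPKM in Lgr5+ cells, 49.1 FPKM in Lgr5- cells and 117 FPKM in Sox9+ cells. Its neighbours Foxf2 (31625816 to 31631406) and Foxq1 (31558170 to 31560976) stood at 2.85 against 20.2 FPKM and at 1.85 against 4.77 FPKM. Foxc1 was 2.64-fold higher, whereas Foxf2 and Foxq1 were 5.51-fold and 2.02-fold lower. Foxd2 (1.24 against 6.09 FPKM), Foxd1 (0.71 against 3.43 FPKM) and Foxc2 (7.93 against 20.1 FPKM) were the other lower members of the family.

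Other homeobox genes higher in Lgr5+ cells included Six2 (277 against 53.9 FPKM), Barx1 (92.0 against 23.8 FPKM) and Pitx3 (5.71 against 1.01 FPKM). Six4 was higher by less than 2-fold, at 9.94 against 4.89 FPKM. Pitx3 is also expressed in muscle. Skeletal muscle genes were higher in the same library, with 17 of 22 measured at least 2-fold higher and summed levels of 177 against 45.9 FPKM, and their part in these differences was not tested. The lower homeobox genes included several of limb mesenchyme. Prrx1, a general factor of limb mesenchyme, stood at 28.2 against 70.1 FPKM, 2.44-fold lower, beside its paralog Prrx2 at 91.2 against 263 FPKM. Nkx3-2, a repressor that promotes chondrocyte fate, stood at 10.1 against 25.02 FPKM, Zfhx4 at 4.66 against 12.5 FPKM, Dlx2 at 2.36 against 7.96 FPKM and Alx4 at 0.08 against 1.98 FPKM. Msx1 (67.3 against 117 FPKM), Msx2 (17.4 against 28.4 FPKM) and the dorsal limb factor Lmx1b (8.17 against 15.6 FPKM) were lower, though by under 2-fold.

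The 5′ Hox genes that pattern the autopod were at nearly the same level in both libraries. Hoxd13 stood at 134 against 149 FPKM, Hoxa13 at 71.3 against 78.4 FPKM and Hoxd11 at 65.6 against 85.6 FPKM. Hoxd12, at 33.6 against 71.8 FPKM, was the 1 of 14 measured Hox genes to differ by 2-fold, and it was 2.11-fold lower in Lgr5+ cells.

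Of 27 measured bHLH genes, 4 were higher by 2-fold or more and 2 lower. Msc (musculin) was 10.4-fold and Scx, the tendon factor gene, 2.4-fold higher in Lgr5+ cells. Scx stood at 195 FPKM against 80.6 FPKM in Lgr5- cells and 42.5 FPKM in Sox9+ cells. Twist1 and Twist2, factors of undifferentiated mesenchyme, were lower, at 70.3 against 223 FPKM and at 24.9 against 62.7 FPKM. The muscle factor genes Myod1 (8.77 against 1.69 FPKM) and Myog (15.5 against 5.97 FPKM) were the other higher members, beside the muscle sums given above. The Id genes, which encode inhibitors of bHLH factors, did not reach 2-fold, and Id3 stood at 2564 against 2276 FPKM. Of the Ebf genes, Ebf1 (36.7 against 77 FPKM), Ebf2 (8.27 against 27.6 FPKM) and Ebf3 (3.63 against 11.3 FPKM) were lower, whereas Ebf4, named here after its value was seen, stood at 18.1 against 11.1 FPKM and lay within 2-fold. Glis1, a Kruppel-like zinc finger gene, stood at 52.6 against 3.54 FPKM, and Trps1 (33.3 against 12.7 FPKM) and the ETS factor Erg (25.2 against 9.99 FPKM), both linked to joint development, were 2.51-fold and 2.38-fold higher. Gata3 stood at 8.3 against 0.84 FPKM. Of 25 nuclear receptor genes, 2 were higher by 2-fold or more and 2 lower, among them Rxrg (7.22 against 2.31 FPKM) on the higher side and Rarb (8.6 against 20.9 FPKM) and Nr2f2 (6.59 against 15.4 FPKM) on the lower.

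**Figure D2:**
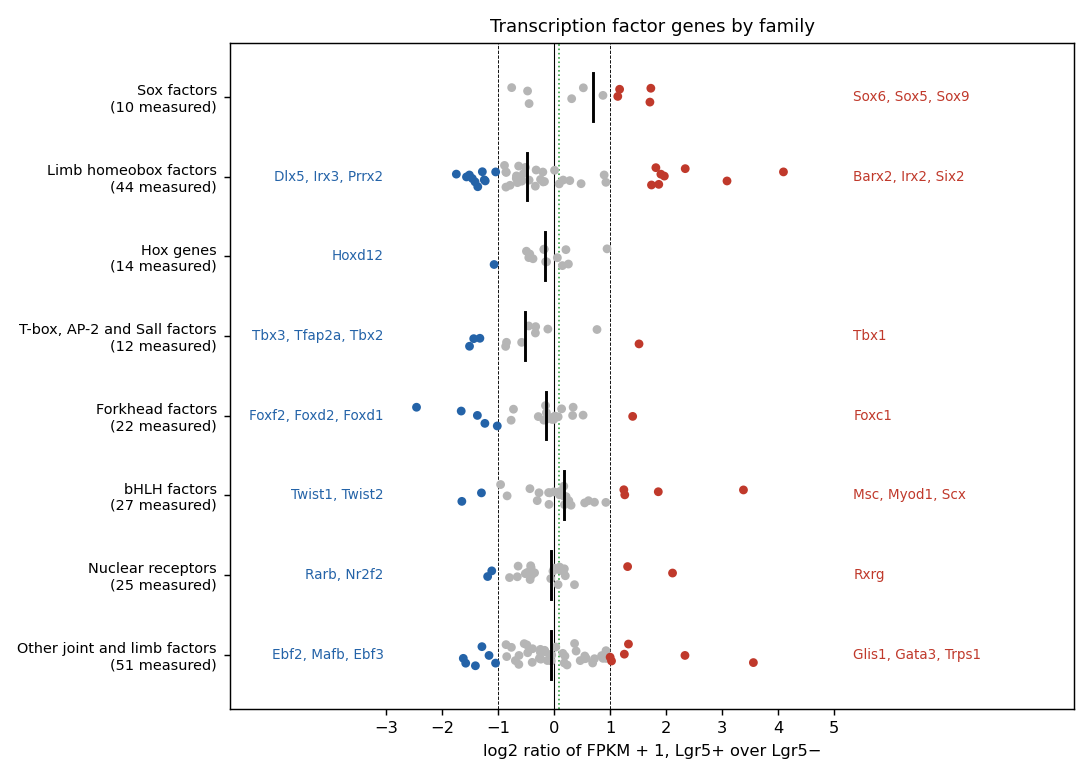
Each point is a measured transcription factor gene, placed by its log2 ratio of FPKM + 1 (Lgr5+ over Lgr5-), with red for at least 2-fold higher and blue for at least 2-fold lower. Black bars are family medians, the dotted line is the median of all measured genes (0.08), and the named genes are up to 3 of those reported at each end; the limb homeobox row spreads widest, from −1.75 (Dlx5) to 4.10 (Barx2).

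Of 18 measured ligand genes of the TGF-beta superfamily, 5 were higher in Lgr5+ cells by 2-fold or more and 3 lower. Inhba, which encodes the subunit of activin A, stood at 74.2 FPKM in Lgr5+ cells, 6.76 FPKM in Lgr5- cells and 19.6 FPKM in Sox9+ cells. Tgfb2 stood at 120 against 27.4 FPKM and Bmp6 at 4.78 against 0.93 FPKM. Gdf15 was low at 1.49 FPKM and listed at 0 in Lgr5- cells. Gdf10, at 32.0 against 86.3 FPKM, Bmp7, at 21.8 against 52.5 FPKM, and Bmp3, at 1.32 against 5.68 FPKM, were the lower ligands. Bmp2 (16.1 against 18.2 FPKM), Bmp4 (10.1 against 18.4 FPKM) and Tgfb3 (60.6 against 49.3 FPKM) lay within 2-fold. Gdf6, a close relative of Gdf5 that also acts in joints, did not share its difference and stood at 1.7 against 3.52 FPKM.

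Antagonists of BMP and activin had 10 of 16 measured members above a log2 ratio of 0, with 4 of 16 measured at least 2-fold higher, 1 lower and a median log2 ratio of 0.70. Nog, the BMP-binding protein noggin that is required for joint formation, stood at 62.8 against 22.4 FPKM, 2.73-fold higher. Chrdl2, a chordin-like protein of cartilage, stood at 14.3 against 0.85 FPKM, and Cer1, an antagonist of Nodal and BMP, at 11.0 against 0.03 FPKM. Chrdl1 (8.64 against 3.52 FPKM) was higher by 2.13-fold, which fell just under 2-fold with upper quartile scaling. Sostdc1, an antagonist of both BMP and Wnt, was the lower member, at 13.7 against 36.6 FPKM. No receptor, Smad or Id gene among the 25 measured reached 2-fold in either direction, and the sign of their median (0.05) depended on the scaling.

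The Wnt pathway had members that differed in both directions. Lgr4, the broadly expressed relative of Lgr5, stood at 76.1 against 28.3 FPKM, 2.63-fold higher in Lgr5+ cells, whereas Lgr6 was low at 0.67 against 1.29 FPKM. The R-spondin gene Rspo3 stood at 1.74 against 6.94 FPKM. None of the 15 measured TCF factor and Wnt target genes was at least 2-fold higher and 5 were lower, while 6 of the 15 lay above a log2 ratio of 0 and the median was −0.16. Apcdd1, a membrane inhibitor of Wnt that is itself a target, stood at 5.66 FPKM in Lgr5+ cells, 30.7 FPKM in Lgr5- cells and 4.23 FPKM in Sox9+ cells. Axin2 (3.13 against 8.94 FPKM) and Nkd2 (14.4 against 32.5 FPKM), feedback inhibitors of the pathway, and Lef1 (12.7 against 36.3 FPKM) were 2.41-fold, 2.17-fold and 2.71-fold lower. Twist1, given above, was the fifth. Myc (55.7 against 29.3 FPKM) and Ccnd1 (73.7 against 46.3 FPKM) were higher by less than 2-fold. So were Sp5 (1.26 against 0.37 FPKM), Tnfrsf19 (6.07 against 4.55 FPKM), Tcf7l2 (60.8 against 45.9 FPKM) and Axin1 (38.5 against 38.0 FPKM).

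Wnt antagonists were divided. Dkk3, a divergent member of its family, stood at 165 against 37.7 FPKM, and Sfrp2 at 451 against 203 FPKM, 4.28-fold and 2.21-fold higher in Lgr5+ cells. Dkk2 (12.0 against 30.0 FPKM) and Dkk1 (1.08 against 4.3 FPKM) were 2.39-fold and 2.55-fold lower. Of the 7 measured Wnt ligand genes, Wnt6 (3.04 against 0.85 FPKM) was 2.18-fold higher, and Wnt4 (8.09 against 3.52 FPKM) was 2.01-fold higher but under 2-fold with 3 of the 4 other scalings. Wnt9a, a ligand of the interzone, stood at 7.17 against 3.77 FPKM and Wnt5a, a ligand of the distal limb, at 76.5 against 95.5 FPKM. Among Frizzled receptor genes, Fzd8 (53.4 against 21.7 FPKM) was 2.4-fold higher and Fzd10 (1.17 against 6.33 FPKM) 3.38-fold lower, and the other 16 measured receptors and co-receptors lay within 2-fold.

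EGF family genes had 4 of 11 measured members at least 2-fold higher and none 2-fold lower. Btc, the ligand betacellulin, stood at 19.2 FPKM in Lgr5+ cells, 0.56 FPKM in Lgr5- cells and 0.46 FPKM in Sox9+ cells. Its receptor gene Egfr stood at 19.8 against 8.01 FPKM, 2.31-fold higher, and the feedback regulator gene Lrig3 at 193 against 69.1 FPKM, 2.76-fold higher. The ligand and its receptor were thus both higher in the same library. Erbb3, at 4.72 against 1.07 FPKM, was also higher, and it is expressed in Schwann cells and epithelia as well. The ligand genes Hbegf (8.09 against 7.14 FPKM) and Tgfa (1.99 against 2.66 FPKM) lay within 2-fold.

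Of 16 measured genes of the hedgehog and Pthlh pathways, 3 were higher by 2-fold or more and 2 lower. Hhip, a response gene whose product binds hedgehog ligands at the cell surface, stood at 30.2 against 4.94 FPKM. Cdon, a hedgehog co-receptor gene, stood at 29.0 against 10.9 FPKM. Gli1 (16.0 against 26.8 FPKM) and Ptch1 (20.5 against 27.6 FPKM), also response genes, were lower, though by under 2-fold. Ihh, the ligand made by maturing chondrocytes, stood at 23.5 against 45.4 FPKM, and Pth1r, the receptor for Pthlh, at 72.3 against 131 FPKM. Pthlh itself was higher, at 50.1 against 11.0 FPKM. In the FGF family, Fgfr2 (145.3 against 56.7 FPKM) was the 1 of 23 measured genes at least 2-fold higher, and Fgf10 (2.21 against 6 FPKM), Fgf2 (4.19 against 9.61 FPKM) and Spred2 (2.96 against 7.5 FPKM) were lower.

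Of 18 measured retinoic acid genes, 7 were lower by 2-fold or more, 3 were higher and 8 lay within 2-fold, with a median log2 ratio of −0.09. Retinol uptake was represented by Stra6 (4.13 against 18.3 FPKM). Synthesis was represented by Rdh10 (39.4 against 105 FPKM) and Aldh1a2 (4.41 against 26.1 FPKM). The binding proteins Crabp1 (97.6 against 241 FPKM) and Crabp2 (125 against 288 FPKM) and the receptor Rarb (8.6 against 20.9 FPKM) were also among the 7 lower genes. The degrading enzyme gene Cyp26a1 was higher, at 8.96 against 3.56 FPKM, as were Rbp4 (21.6 against 7.51 FPKM), which encodes the carrier of retinol in blood, and Rxrg, given above. Cyp26b1 (17.7 against 20.0 FPKM), the reductase gene Dhrs3 (61.2 against 62.1 FPKM) and the receptor genes Rara (12.7 against 18.6 FPKM) and Rarg (57.8 against 54.9 FPKM) lay within 2-fold. For Stra6 (4.58 FPKM), Rdh10 (29.8 FPKM), Crabp1 (108 FPKM), Crabp2 (128 FPKM) and Rarb (6.41 FPKM), the Sox9+ library was near the Lgr5+ library, whereas Aldh1a2 (32.5 FPKM) was near the Lgr5- library.

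Cytokine genes included Lif, at 5.34 against 0.06 FPKM, and Il11, at 2.86 against 0.39 FPKM, both of which signal through the shared receptor gene Il6st (12.9 against 15.9 FPKM). The chemokine genes Ccl2 (16.0 against 3 FPKM) and Ccl7 (4.24 against 1.11 FPKM) were higher as well. Enpp2, which encodes autotaxin, the enzyme that makes lysophosphatidic acid, stood at 138 against 49.6 FPKM, 2.75-fold higher, and its main receptor gene Lpar1 hardly differed at 66.8 against 68.8 FPKM. Pappa, a protease that frees IGF from its binding proteins, stood at 4.28 against 0.81 FPKM and was the 1 of 15 measured IGF pathway genes to reach 2-fold. Igf2 stood at 554 against 315 FPKM and Igfbp4 at 583 against 482 FPKM.

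**Figure D3:**
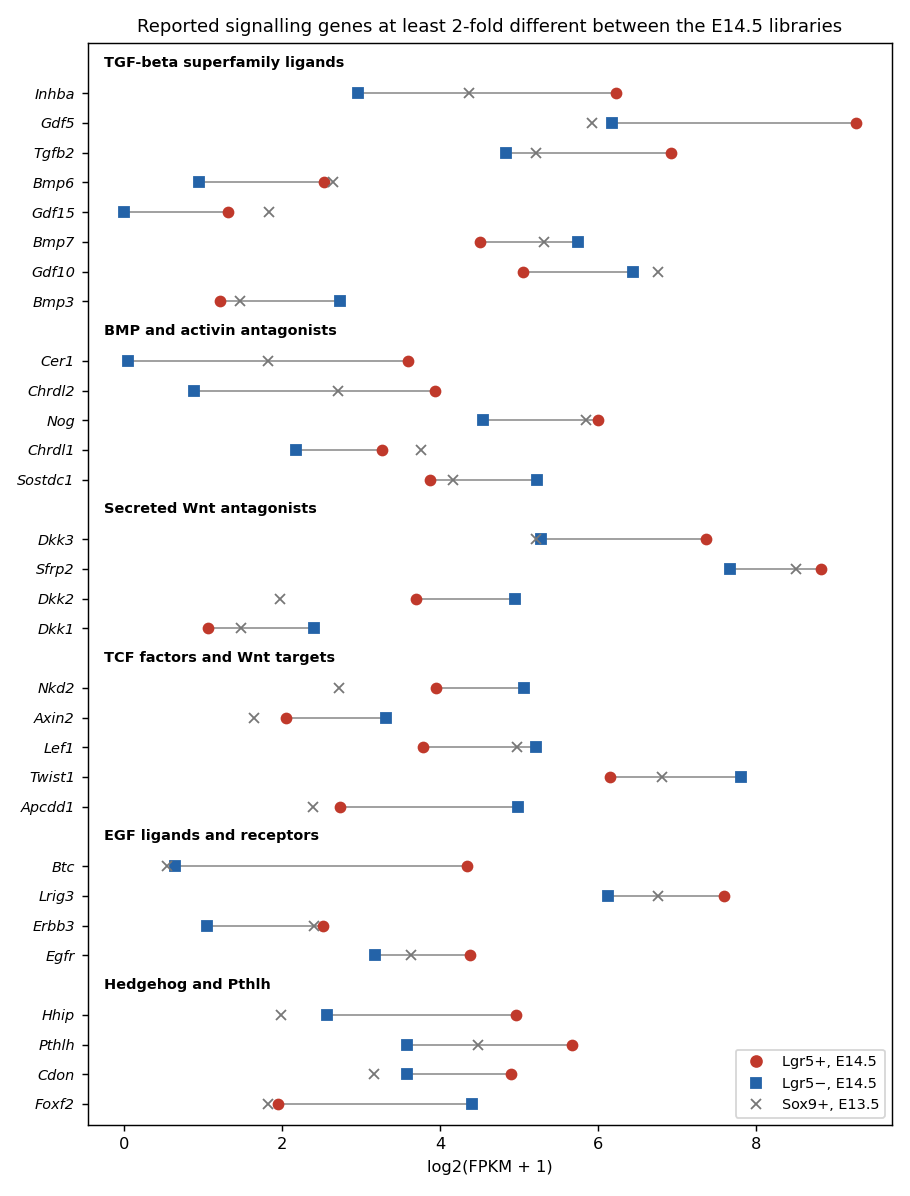
Reported signalling genes at least 2-fold different between the E14.5 libraries, by group, with log2(FPKM + 1) on the horizontal axis and 1 mark for each library. Every gene under "TCF factors and Wnt targets" has the Lgr5+ mark to the left of the Lgr5- mark, every gene under "EGF ligands and receptors" to the right, and the Sox9+ mark is given as a reference.

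The main fibrillar collagens of the extracellular matrix lay within 2-fold. Col1a1 stood at 1198 against 998 FPKM, Col3a1 at 342 against 416 FPKM and Col2a1, the main cartilage collagen, at 2253 against 1401 FPKM. Of 34 measured collagen genes, 6 were higher in Lgr5+ cells by 2-fold or more and 2 lower. Col9a2 (480 against 217 FPKM) and Col9a3 (441 against 206 FPKM), chains of the collagen that coats cartilage fibrils, were 2.21-fold and 2.13-fold higher, the second falling under 2-fold with upper quartile scaling. Col8a1, a network-forming chain, stood at 22.3 against 6.86 FPKM and Col25a1 at 13.8 against 5.56 FPKM. Col23a1 (11.0 against 25.9 FPKM) and Col24a1 (0.82 against 3.6 FPKM) were lower. Both E14.5 libraries were below the Sox9+ library for Col2a1, at 5304 FPKM.

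Of 37 measured matricellular and elastic matrix genes, 6 were higher by 2-fold or more and 3 lower. Tgfbi, an adhesive protein induced by TGF-beta, stood at 864 FPKM in Lgr5+ cells, 137 FPKM in Lgr5- cells and 285 FPKM in Sox9+ cells, and was 6.28-fold higher in Lgr5+ than in Lgr5-. Smoc1 and Smoc2, calcium-binding proteins that modulate BMP and other signals, stood at 54.7 against 6.91 FPKM and at 211 against 54.6 FPKM. Efemp1, an elastic-fibre protein, stood at 34.7 against 12.1 FPKM. The fibrillin gene Fbn1 (12.3 against 26.5 FPKM), Emilin2 (6.65 against 18.6 FPKM) and the basement membrane gene Nid1 (12.1 against 26.5 FPKM) were lower. Fn1 (122 against 113 FPKM) and Postn (82.0 against 52.9 FPKM) lay within 2-fold.

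Small leucine-rich proteoglycans, which bind collagen fibrils and set their width, had 5 of 14 measured members at least 2-fold higher and none 2-fold lower. Prelp stood at 37.6 against 6.83 FPKM, 4.93-fold higher, and Chad, a chondrocyte-binding member, at 49.4 against 16.2 FPKM. Fmod (134.6 against 24.4 FPKM), Kera (80.6 against 14.52 FPKM) and Dcn (115 against 36.0 FPKM) were the other 3. Kera and Dcn were much lower in Sox9+ cells, at 1.34 and 7.97 FPKM, whereas Prelp (42.1 FPKM) and Chad (65 FPKM) were as high there as in Lgr5+ cells. Bgn (164 against 128 FPKM) and Lum (96.5 against 68.9 FPKM) lay within 2-fold. Of 20 measured cartilage matrix genes, 4 were higher by 2-fold or more and 2 lower, 16 lay above a log2 ratio of 0 and the median was 0.65. Matn1 (41.5 against 93.8 FPKM) and Comp (3.9 against 15.8 FPKM), matrix proteins of growing cartilage, were the lower members, and Mia1, a small secreted cartilage protein, was 2.62-fold higher at 348 against 132 FPKM.

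Of 42 measured glycosaminoglycan genes, 4 were at least 2-fold higher, 1 was lower and 37 lay within 2-fold, with a median log2 ratio of 0.16. Hs3st3a1 and Hs3st3b1, neighbouring genes on chromosome 11 (64435332 to 64522835 and 63884693 to 63922284), encode sulphotransferases that add the same rare sulphate group. Hs3st3a1 stood at 70.2 FPKM in Lgr5+ cells, 6.46 FPKM in Lgr5- cells and 9.01 FPKM in Sox9+ cells, and Hs3st3b1 at 48.5, 8.3 and 12.6 FPKM. They were 9.54-fold and 5.32-fold higher in Lgr5+ than in Lgr5-. No source used here says how reads were divided where these related genes share sequence. Sulf1 (229 against 79.0 FPKM) and Sulf2 (280 against 115 FPKM), which remove sulphate from heparan sulphate outside the cell, were 2.87-fold and 2.43-fold higher. The lower gene was Chst15 (3.17 against 7.46 FPKM), a sulphotransferase of chondroitin sulphate. Other heparan sulphate genes of the list lay within 2-fold, among them the chain-building enzyme gene Ext1 (32.6 against 32.2 FPKM), Ndst1 (12 against 17.1 FPKM) and Hs3st1 (3.02 against 5.46 FPKM). Among collagen-modifying genes, Plod2, a lysyl hydroxylase that sets the type of crosslink, stood at 132 against 35.5 FPKM, P4ha2 at 78.7 against 32.2 FPKM and Loxl3 at 25.6 against 11.0 FPKM. Of 32 measured proteases and inhibitors, 1 reached 2-fold, Adamts14, a procollagen-processing enzyme, at 7.81 against 2.32 FPKM. Prg4, which encodes lubricin, was low at 1.19 against 1.14 FPKM.

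**Figure D4:**
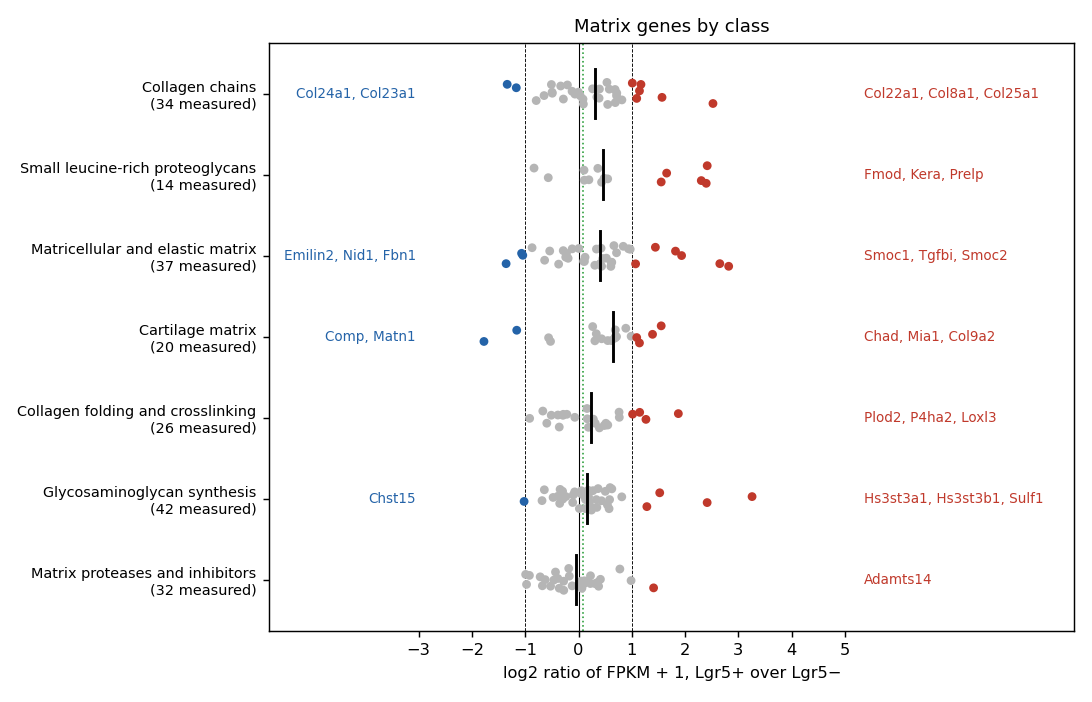
Each point is a measured matrix gene, placed by its log2 ratio of FPKM + 1 (Lgr5+ over Lgr5-), with red for at least 2-fold higher and blue for at least 2-fold lower. Black bars are list medians and the dotted line is the median of all measured genes; glycosaminoglycan genes cluster near 0 with 4 members to the right, and proteases have 1 red point, Adamts14.

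Surface and guidance genes had a few large differences in otherwise similar lists. Sema3c, a secreted guidance protein, stood at 118 FPKM in Lgr5+ cells, 14.9 FPKM in Lgr5- cells and 34.5 FPKM in Sox9+ cells, 7.45-fold higher in Lgr5+ than in Lgr5-. Robo1, a Slit receptor gene, stood at 76.0 against 31.5 FPKM, and the plexin genes Plxna2 (4.16 against 1.22 FPKM) and Plxna4 (5.29 against 1.79 FPKM) were 2.32-fold and 2.25-fold higher. Efnb3 (11.9 against 32.9 FPKM) and Slit3 (4.84 against 10.9 FPKM) were the 2 lower genes of 57 measured. Cdh13, a cadherin anchored by lipid, stood at 35.4 against 2.97 FPKM and Itga11, a collagen-binding integrin chain, at 81.9 against 16.0 FPKM, 9.17-fold and 4.86-fold higher, among 32 measured cadherins and integrins of which 5 were higher and 1 lower. The channel genes Kcnma1 (9.71 against 2.85 FPKM) and Ano1 (7.62 against 2.32 FPKM) were higher as well, 2 of the 4 higher among 19 measured. The mechanosensitive channel gene Trpv4, linked to cartilage, stood at 30.5 against 15.7 FPKM.

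Marker genes of other cell types differed between the libraries, and their part in the differences above was not tested. Summed over their lists, epidermal genes stood at 156 FPKM in Lgr5+ cells against 43.2 FPKM, with 9 of 19 measured members at least 2-fold higher. Krt17 led them at 63.5 against 5.96 FPKM, and Perp (10.1 against 1.6 FPKM) and Sfn (8.86 against 1.38 FPKM) were also higher. The epidermal master factor gene Trp63 went the same way, at 0.51 against 0.09 FPKM, and was too low to count as measured. A lower value, by under 2-fold, was found for 4 of the 19, among them Epcam (3.9 against 8.76 FPKM) and Krt18 (4.93 against 9.41 FPKM). The muscle precursor genes Pax7 (0.31 against 0.04 FPKM) and Pax3 (0.16 against 0.02 FPKM) were near 0 in both libraries. Red blood cell genes summed to 305 FPKM against 5650 FPKM, with 10 of 14 measured members lower in Lgr5+ cells by 2-fold or more.

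Of 24 measured macrophage, mast cell and neutrophil genes, 4 were higher by 2-fold or more and 6 lower. The macrophage complement genes C1qa (6.91 against 0.86 FPKM), C1qb (32.5 against 10.3 FPKM) and C1qc (21.6 against 7.23 FPKM) were higher in Lgr5+ cells, whereas Csf1r, the macrophage growth factor receptor, stood at 3.86 against 3.06 FPKM. The mast cell protease genes Cpa3 (2.79 against 15.6 FPKM) and Cma1 (2.26 against 12.4 FPKM) and the receptor gene Kit (2.5 against 6.38 FPKM) were lower, as was the mast cell gene Hdc given above. The neutrophil gene S100a8 was lower, at 0.86 against 11.5 FPKM, and S100a9 was listed at 0 against 4.28 FPKM. The neuronal genes Stmn2 (1.51 against 8.7 FPKM) and Tubb3 (1.24 against 6.9 FPKM) were lower, by 3.86-fold and 3.53-fold. Among mural cell genes, Pdgfrb (17.0 against 47.1 FPKM) was lower and Acta2 (10.2 against 3.18 FPKM) and Rgs5 (4.25 against 0.56 FPKM) higher. The summed levels of the endothelial and mural list, at 137 against 150 FPKM, were close.

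**Figure D5:**
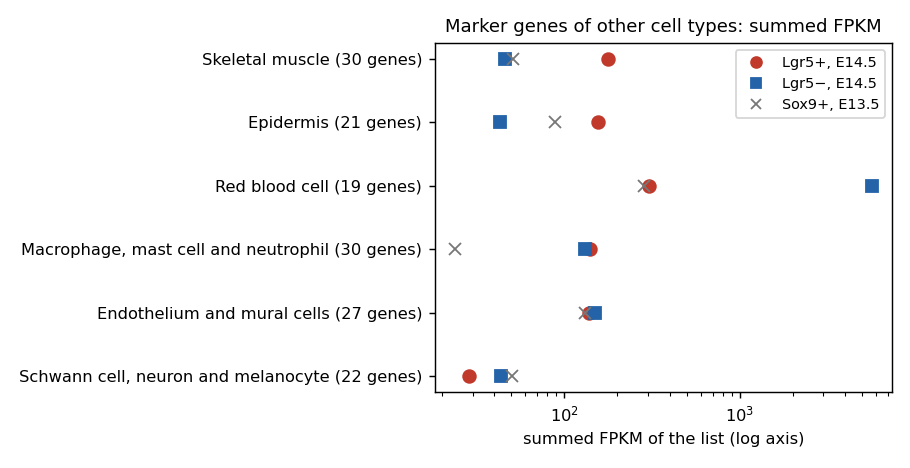
Summed FPKM of 6 marker lists in each library, on a log axis, with 1 mark per library and no error, since each population had 1 library. The muscle and epidermal sums are highest in Lgr5+ cells (177 and 156 FPKM), and the red blood cell sum is highest in Lgr5- cells (5650 FPKM).

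Genes of metabolism and the secretory pathway leaned the same way by small amounts. Of 33 measured glycolysis and hypoxia genes, 30 had a higher value in Lgr5+ cells and 4 were at least 2-fold higher, with a median log2 ratio of 0.48. Bnip3, a mitophagy gene induced by hypoxia, stood at 104 against 36.8 FPKM, the lactate exporter gene Slc16a3 at 40.9 against 18.04 FPKM and the glucose transporter gene Slc2a1 at 82.0 against 42.0 FPKM. Of 23 unfolded protein response genes, 22 had a higher value and none reached 2-fold, with a median of 0.37. The chaperone gene Hspa5 stood at 1009 against 740 FPKM and Herpud1 at 40.2 against 21.1 FPKM. None of 31 replication and mitosis genes, 19 CDK inhibitor and cyclin genes or 4 measured Y-linked genes reached 2-fold. These medians stand beside 0.08 for all measured genes, of which 7390 had a higher and 5026 a lower value in Lgr5+ cells.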

How the data were processed

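RNA was measured in sorted digit cells, 1 library per population. Per the labels' protocols, a SMARTer low-input kit amplified cDNA starting at 10 ng RNA, so that weakly expressed genes are measured with more noise. The submitters' processing notes name HISAT2 and mm10 (GRCm38). No source used here names the program that computed expression, its annotation or its rule for shared reads. The authors deposited FPKM, 1 value per gene symbol. Counts are not part of these tables, depth is therefore unknown, and 25 symbols had been turned into dates and were not used by name.

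Ratios were computed as log2 of FPKM + 1 for genes reaching 1 FPKM on the higher side, and called at 2-fold or more. The code, run with Python 3.11.15, numpy 2.4.6 and pandas 2.3.3, was tested on the Lgr5- values with known changes put in. No noise was added, so that test checks the arithmetic only. Genes were described in 50 lists holding 1302 symbols, of which 1299 were found in the files, 10 of them under an older name, and some genes stand in several lists. Named genes were the 4 marker genes, the 25 highest and 25 lowest ratios, the 10 largest FPKM differences each way, and members of the lists; a few genes under this rule are counted in the lists but not reported here by name. The members and lists were chosen with earlier results of these data known. Gene spans and promoters came from RefSeq tables (GRCm38.p6), and 23015 of 23284 symbols matched. Alternatives were other pseudocounts, minimum levels, scalings and a 3-fold threshold.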

Additional observations from a re-analysis of the deposited data

How the results depend on the processing

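The counts of genes at least 2-fold higher and lower (453 and 235) kept their order, higher above lower, in every alternative run. They were 694 and 458 with a pseudocount of 0.1, 202 and 81 with a pseudocount of 5, 242 and 115 with a minimum of 10 FPKM, 169 and 61 at a 3-fold threshold, and 616 and 355 after rescaling to TPM. Upper quartile scaling gave 379 and 290, median of ratios 407 and 267, and a sum without haemoglobin, erythroid and ribosomal RNA genes 419 and 254. With no minimum they were unchanged, since a gene under 1 FPKM cannot reach 2-fold on this scale. Chosen after seeing the data, leaving out short RNA genes gave 444 and 220, and leaving out marker genes of other cell types 420 and 216. Of the 453 and 235 genes, 379 and 234 kept their call in all 4 other scalings, and 197 and 80 when both other pseudocounts were required as well. The ratios of 265 genes were followed through the alternatives: the markers, those named by ratio or FPKM difference, and the called genes of the lists. None of the 265 changed sign, and the other called genes were not followed. Of 50 list medians, 4 changed sign with scaling (proteases, TGF-beta receptors and Smads, FGF and IGF genes), and 16, these included, changed sign under at least 1 of all alternatives run. The other 12 were those of collagens, Wnt ligands, R-spondin and Lgr genes, Wnt antagonists, hedgehog, EGF, chemokine, adhesion, Hox, nuclear receptor, other joint and limb factor, and myeloid genes. The SMARTer amplification, the unknown depth and the single libraries limit what low values can show. No paired analysis was possible because each group had 1 library.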

Other observations

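By difference in FPKM, in place of ratio, the gains of the Lgr5+ library were led by abundant genes. Ubb, a ubiquitin gene, stood at 4931 against 3070 FPKM, and Cdkn1c, the imprinted cell cycle inhibitor p57, at 1855 against 1089 FPKM. H19, an imprinted non-coding RNA, stood at 1272 against 564 FPKM, 2.25-fold higher, Tsc22d1, a TGF-beta-responsive factor gene, at 1069 against 495 FPKM and Itm2a, a membrane protein gene of cartilage and muscle precursors, at 960 against 310 FPKM. Dlk1, an imprinted Notch-like protein gene, was 2.18-fold higher at 39.1 against 17.3 FPKM, and H19 and Dlk1 were the 2 of 20 measured imprinted growth genes to reach 2-fold. The losses were led by Rn45s (9924 against 33545 FPKM) and Lars2 (8100 against 12937 FPKM), followed by haemoglobin and ribosomal protein genes.

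Notch genes were measured in 18 of 23 cases, with 4 at least 2-fold higher and none 2-fold lower. The ligand gene Dll1 stood at 5.4 against 0.83 FPKM, the ligand-like gene Dner at 6.83 against 1.67 FPKM and Dll3 at 2.83 against 0.72 FPKM. Hes1, the main response gene, stood at 605 against 285 FPKM, 2.12-fold higher but under 2-fold with upper quartile scaling. The receptor genes Notch2 (3.04 against 6.35 FPKM) and Notch3 (7.09 against 12.8 FPKM) were lower, though by under 2-fold. Among immediate early genes, Dusp1 (591 against 216 FPKM) was the 1 of 30 measured stress genes at least 2-fold different, and Fos (590 against 891 FPKM) and Jun (791 against 432 FPKM) lay within 2-fold in opposite directions.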
